A study of Homo sapiens with 6 samples.

Results

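Messenger RNA of 8 amino acid transporter genes was examined in F36P, a human erythroleukaemia cell line with erythroid features that depends on a cytokine for growth. The genes are SLC7A11, SLC7A5, SLC3A2, SLC1A4, SLC1A5, SLC7A1, SLC38A1 and SLC38A2. They were taken by gene symbol from the deposited table, which lists 16315 genes, and all 8 symbols were found there. The study compared F36P cells carrying a CRISPR guide RNA against HDAC7 (sgHDAC7, labelled as HDAC7 knockout) with F36P cells carrying a non-targeting guide (sgNT, labelled as wild type). Both groups had been selected with puromycin at 1 µg/ml for 4 days, and each held 3 libraries that the labels call biological replicates 1, 2 and 3. The labels do not give the number of guides per gene, whether the cells were clones or a mixed population, or whether the replicates were grown apart. The p-values therefore measure only the spread between these libraries. HDAC7 is a class IIa histone deacetylase, and the series asks how it bears on erythroid differentiation of these cells.

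Amino acid transporters carry amino acids across the plasma membrane, and proliferating blood cells depend on them for protein synthesis, glutathione synthesis and nucleotide synthesis. SLC3A2 (also called CD98 or 4F2hc) is the heavy chain that brings light chains such as SLC7A5 (LAT1) and SLC7A11 (xCT) to the cell surface. SLC7A5 exchanges leucine and other large neutral amino acids, and SLC7A11 takes up cystine in exchange for glutamate. SLC7A1 (CAT1) carries arginine and lysine, SLC1A4 (ASCT1) and SLC1A5 (ASCT2) exchange small neutral amino acids, with glutamine carried by SLC1A5, and SLC38A1 (SNAT1) and SLC38A2 (SNAT2) take up glutamine and alanine together with sodium. ATF4, a transcription factor made in larger amounts when amino acids are scarce or the endoplasmic reticulum is stressed, is known to bind composite C/EBP and ATF sites in many amino acid transporter genes.

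Library totals ran from 10039693 to 12521195 counts. HDAC7 itself stood at 194.2 to 246 CPM (counts scaled to a common library total) in sgHDAC7 and at 449.9 to 461.8 CPM in sgNT, so the targeted messenger RNA was lower in all 3 sgHDAC7 libraries (edgeR log2 fold change -1.02 ± 0.09 (SE), adjusted p = 0.00139). The scaling is TMM, edgeR's correction of library totals for composition. By replicate number, the HDAC7 log2 ratios of sgHDAC7 over sgNT were -1.21, -0.95 and -0.91 in replicates 1, 2 and 3, on log2(CPM + 0.5). Erythroid markers matched the label of the line, with all 8 of 8 listed genes in the table and a summed level of 14090 to 19143 CPM in sgHDAC7 and 9969 to 14388 CPM in sgNT. Of 6 lymphoid markers 3 are in the table, summing to at most 19.5 CPM, and of 5 myeloid markers 2 are, summing to 20.8 to 29.6 CPM in sgHDAC7 and 39.5 to 63.4 CPM in sgNT. Of 6 fibroblast and epithelial markers 4 are in the table, at 2.25 to 3.28 CPM in sum in sgHDAC7 and 4.15 to 6.56 CPM in sgNT. Of the defining markers CD14, CSF1R, CD3E, MS4A1 and COL1A2 have no row in the table, and MPO was at 0 in sgHDAC7 replicates 2 and 3. ITGAM, an integrin of myeloid cells that carries nearly all of the myeloid sum, was itself called lower in sgHDAC7 (log2 fold change -0.94, edgeR adjusted p = 0.0305). The part of these marker differences in the transporter results was not tested. A lower level in such bulk RNA can mean less RNA per cell or fewer cells of a kind, and these cannot be told apart. On the second principal component (35.3% of the variance) both replicate 1 libraries had positive scores and the other 4 libraries negative ones. The transporter results are therefore given with their values by replicate.

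Because several members were lower together, their promoter windows were searched for the ATF4 composite element TGATGNAA on both strands. Windows of 300 bases (250 before and 50 after a transcription start) came from RefSeq on GRCh38.p14, and were found for 7 of the 8 genes, all but SLC7A11. The element was found in 5 of 13 windows, 1 each for SLC1A4, SLC1A5, SLC3A2, SLC7A1 and SLC38A1, and in 3.62% of all 35116 windows of that length. The 5 matches are printed 5′ to 3′ on the gene's strand, with the element in capitals, so that their letters and flanks can be compared.
SLC1A4: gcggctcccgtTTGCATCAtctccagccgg
SLC1A5: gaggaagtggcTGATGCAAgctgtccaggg
SLC3A2: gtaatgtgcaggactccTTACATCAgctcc
SLC7A1: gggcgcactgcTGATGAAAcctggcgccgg
SLC38A1: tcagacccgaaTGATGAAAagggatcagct
These lie at chr2:64989381-64989410 (plus strand, SLC1A4), chr19:46784893-46784922 (minus strand, SLC1A5), chr11:62881719-62881748 (plus strand, SLC3A2), chr13:29595663-29595692 (minus strand, SLC7A1) and chr12:46266502-46266531 (minus strand, SLC38A1). SLC1A4 and SLC3A2 carry the element on the opposite strand, read as TTGCATCA and TTACATCA. Counted from the transcription start of its window, the element began at base -97 in SLC1A5, -7 in SLC1A4, -4 in SLC38A1, 8 in SLC7A1 and 38 in SLC3A2. SLC1A5, SLC3A2, SLC1A4 and SLC38A1 have more than 1 window each, and the element was in 1 of them. Among the members called lower in the edgeR test of all libraries, given below, only SLC38A1 had the element in a window. Sequence outside these windows, such as introns further into the gene, was not searched. SLC7A5 and SLC38A2 were called lower and had windows without it, and SLC7A11 had no window. Whether the element bears on the lower levels was not tested. The antioxidant element TGACNNNGC, known for NRF2, was found in 1 window each of 4 members (SLC1A5, SLC3A2, SLC7A1 and SLC7A5) and in 13.3% of all windows. The E-box CACGTG was found in 1 window each of SLC1A5 and SLC7A5 and in 7.26% of all windows. These percentages count windows and not genes, and the 7 members searched have 13 windows. The matches to these 3 motifs did not overlap in the members' windows (0 pairs). A match is a run of letters and says nothing of a factor's presence there.

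SLC7A11 (4:138164097-138242349, minus strand, GRCh38, GENCODE 29), the cystine transporter, had 27.2, 23.05 and 21.6 CPM in sgHDAC7 replicates 1, 2 and 3, and 50.1, 134.5 and 135.4 CPM in sgNT replicates 1, 2 and 3. All 3 sgHDAC7 libraries lay below all 3 sgNT libraries, and sgNT replicate 1 lay between the sgHDAC7 level and the other controls. Means were 24.0 ± 2.91 (SD, n = 3) and 107 ± 49.0 CPM (n = 3), so SLC7A11 fell 4.45-fold (edgeR log2 fold change -2.15 ± 0.32, adjusted p = 0.0139). The antisense gene SLC7A11-AS1 shares 865 exonic bases with SLC7A11 but had means of only 0.0537 and 0.634 CPM.

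SLC7A5 (16:87830023-87869488, minus strand), the leucine-exchanging light chain, had 315.7, 349.9 and 329.5 CPM in sgHDAC7 replicates 1 to 3, and 441.8, 665.5 and 707.3 CPM in sgNT replicates 1 to 3. The groups did not overlap, and the lowest control was again sgNT replicate 1. Means were 332 ± 17.2 (n = 3) and 605 ± 143 CPM (n = 3), a 1.82-fold fall (edgeR log2 fold change -0.87 ± 0.15, adjusted p = 0.0226). SLC7A5P2, a pseudogene copy listed separately, had 2.90 and 2.55 CPM.

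SLC3A2 (11:62856102-62888875, plus strand), the CD98 heavy chain, had 193.02, 172.4 and 183.5 CPM in sgHDAC7 replicates 1 to 3 and 198.7, 335.7 and 353 CPM in sgNT replicates 1 to 3. The sgHDAC7 libraries lay below the controls, but the replicate 1 libraries of the 2 groups were nearly level. The log2 fold change was -0.69 ± 0.18 and did not pass (edgeR adjusted p = 0.0718). With the replicate number as a block SLC3A2 passed (log2 fold change -0.65, edgeR adjusted p = 0.0355), as it did with DESeq2 (-0.69, adjusted p = 0.00131).

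SLC7A1 (13:29509410-29595688, minus strand), the arginine and lysine transporter, had 154, 165.3 and 170.5 CPM in sgHDAC7 replicates 1 to 3, and 186.7, 288.7 and 283.4 CPM in sgNT replicates 1 to 3. The groups did not overlap. Its log2 fold change of -0.63 ± 0.14 was just outside the threshold of 0.05 (edgeR adjusted p = 0.0516), and it passed with the replicate block (log2 fold change -0.61, edgeR adjusted p = 0.00774). It also passed with upper quartile scaling, library totals alone, no filter on low counts (edgeR adjusted p = 0.0492, 0.044 and 0.0491) and DESeq2 (0.000591). It did not pass with RLE size factors (edgeR adjusted p = 0.0518), limma (0.0623 and 0.0625), a mean CPM of at least 5 (edgeR, 0.0529) or edgeR's robust setting (0.0909).

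The neutral amino acid exchangers SLC1A5 and SLC1A4 were the members whose groups overlapped. SLC1A5 (19:46774883-46788594, minus strand), the glutamine-carrying exchanger, had 788.6, 768.5 and 749.4 CPM in sgHDAC7 replicates 1 to 3, and 725.6, 1185 and 1206 CPM in sgNT replicates 1 to 3. The sgNT replicate 1 library lay below every sgHDAC7 library, and the other controls lay above them all. The log2 fold change was -0.43 ± 0.16 (edgeR adjusted p = 0.18). SLC1A4 (2:64988477-65023865, plus strand), which carries alanine and serine, had 34.4, 30.6 and 29.5 CPM in sgHDAC7 replicates 1 to 3, and 31.1, 49.3 and 58.4 CPM in sgNT replicates 1 to 3. Here sgNT replicate 1 fell within the sgHDAC7 range, and the log2 fold change was -0.56 ± 0.19 (edgeR adjusted p = 0.154).

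SLC38A2 (12:46358189-46372867, minus strand), a glutamine and alanine transporter known to be induced by amino acid shortage, had 189.1, 163.2 and 152.6 CPM in sgHDAC7 replicates 1 to 3, and 235.9, 424.3 and 415.4 CPM in sgNT replicates 1 to 3. Every sgHDAC7 library lay below every control. SLC38A2 fell 2.13-fold, from 359 ± 106 (n = 3) to 168 ± 18.8 CPM (n = 3), or -1.09 ± 0.19 in log2 (edgeR adjusted p = 0.0249). SLC38A1 (12:46183063-46270017, minus strand), the related glutamine transporter, was close to the limit of detection. It had 6, 3 and 2 counts in sgHDAC7 replicates 1 to 3 and 13, 48 and 36 counts in sgNT replicates 1 to 3. Summed over libraries and scaled for depth, the sgNT level was 10.1 times the sgHDAC7 level, with a 95% interval of 5.40 to 20.9 (exact binomial) that covers counting error only. SLC38A1 passed the test (edgeR adjusted p = 0.0236), but it met the filter of 1 CPM on average only through the sgNT libraries, since its unscaled mean in sgHDAC7 was 0.3 CPM.

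**Figure D1:**
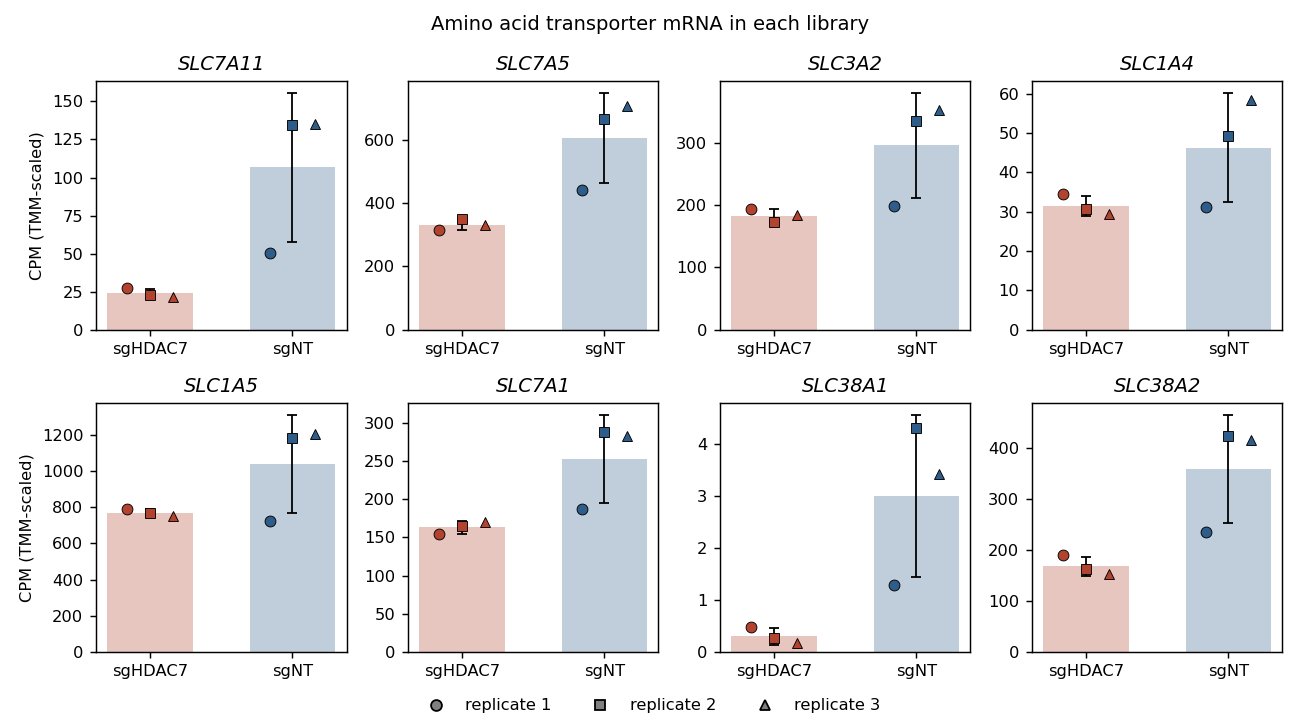
TMM-scaled CPM (vertical axes, linear from 0) of the 8 transporter genes in the sgHDAC7 (red) and sgNT (blue) libraries. Bars are group means, error bars the SD of 3 libraries, and symbols the single libraries. The sgHDAC7 points lie close together, while sgNT replicate 1 lies below sgNT replicates 2 and 3 in all 8 genes.

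With group alone, 4 of the 8 genes fell and none rose (SLC7A11, SLC7A5, SLC38A1 and SLC38A2), where 1.70% of the 13841 tested genes were called lower and 1.16% higher. The 8 genes were chosen with earlier results of these data known. Neither this count nor the later counts of members are therefore independent evidence of direction. SLC38A1 was tested only through its sgNT libraries, and with a mean CPM of at least 5, where it was not tested, 3 members were called lower. The groups did not overlap, with sgHDAC7 lower, in 6 of 8 genes and in 12.2% of all tested genes. The median log2 fold change was -0.78 over the 8 genes and -0.69 without SLC38A1, beside -0.0016 over all tested genes. By exact two-sided permutation p was 0.1 for these 6 genes, the smallest value that 3 against 3 libraries allow, 0.2 for SLC1A4 and 0.4 for SLC1A5. Without sgHDAC7 replicate 2 or 3, or without sgNT replicate 2 or 3, 0 of 8 genes passed the edgeR test (adjusted p of SLC7A11 from 0.0667 to 0.11), and without sgNT replicate 1 all 8 passed. Without sgHDAC7 replicate 1, SLC7A11, SLC38A1 and SLC38A2 passed and SLC7A5 did not (edgeR adjusted p = 0.0584). With edgeR's robust setting SLC38A1 alone passed, and SLC7A11, SLC7A5 and SLC38A2 had adjusted p = 0.0876, 0.053 and 0.0892. All 8 log2 fold changes stayed below 0 in each of these fits.

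The size of the difference between the guides depended on the replicate number. Between the replicate 1 libraries the log2 ratio of sgHDAC7 over sgNT, on log2(CPM + 0.5), was -0.87 for SLC7A11, -0.86 for SLC38A1, -0.48 for SLC7A5, -0.32 for SLC38A2, -0.28 for SLC7A1 and -0.04 for SLC3A2. It was above 0 for SLC1A5 (0.12) and SLC1A4 (0.14). Between the replicate 2 libraries the ratios ran from -2.67 (SLC38A1) to -0.62 (SLC1A5), and between the replicate 3 libraries from -2.62 (SLC7A11) to -0.69 (SLC1A5). All 8 genes were thus lower in sgHDAC7 in replicates 2 and 3, and 6 of 8 in all 3 pairs, which 22.2% of all tested genes were. Both counts hold SLC38A1, which was tested only through its sgNT libraries. Expressed as folds, SLC7A11 was 1.84-fold lower in replicate 1, 5.83-fold lower in replicate 2 and 6.27-fold lower in replicate 3.

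**Figure D2:**
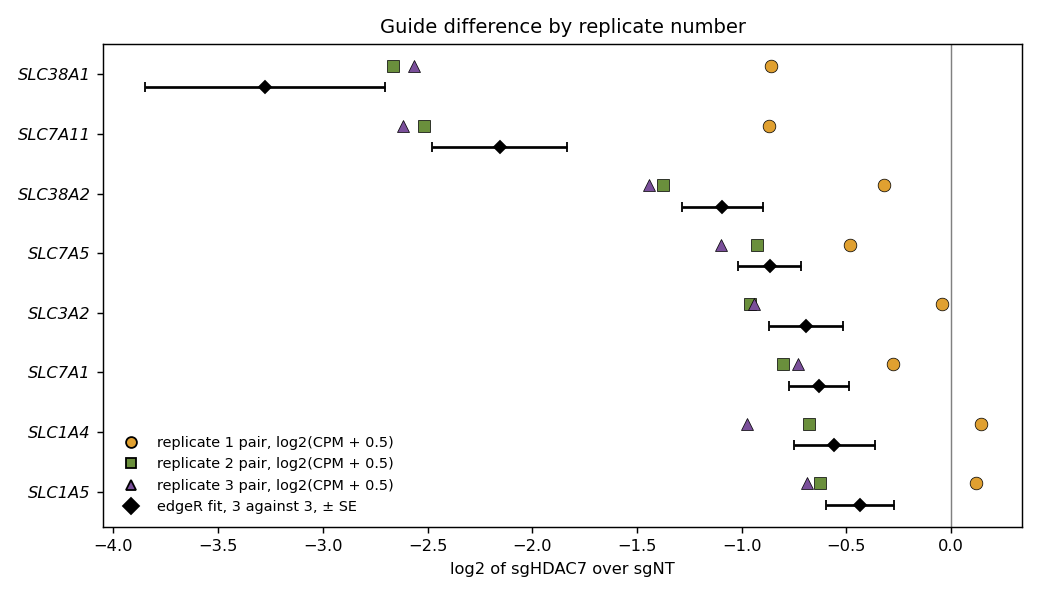
Log2 ratio of sgHDAC7 over sgNT (horizontal axis) for each transporter gene, by replicate number (coloured symbols) and from the edgeR fit of 3 against 3 libraries (black diamonds, bars show the SE). Replicate 1 lies to the right of replicates 2 and 3 in every gene, from -0.87 to 0.14.

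The variation between replicates lay in the sgNT libraries. The mean of sgNT replicates 2 and 3 was 3.01 times sgNT replicate 1 for SLC38A1, 2.69 times for SLC7A11 and 1.53 to 1.78 times for the other 6 genes. In sgHDAC7 the same quotient was between 0.82 and 1.09 for 7 genes, and 0.44 for SLC38A1, which rests on 6, 3 and 2 counts. The sgNT replicate 1 level of SLC7A11 was 2.09 times the sgHDAC7 mean and that of SLC38A2 1.40 times, while for SLC3A2, SLC1A4 and SLC1A5 it was 1.09, 0.99 and 0.94 times.

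A term for replicate 1, which assumes the same guide difference in every replicate, brought all 8 genes past the edgeR threshold, all lower, against 6.81% of tested genes lower and 5.78% higher with that term. There SLC7A1 stood at -0.61 ± 0.08 in log2 fold change (edgeR adjusted p = 0.000755), SLC3A2 -0.65 ± 0.13 (0.00789), SLC1A5 -0.40 ± 0.12 (0.0411) and SLC1A4 -0.53 ± 0.16 (0.0472). On replicates 2 and 3 alone, 2 libraries against 2, all 8 were lower as well, and so were 10.9% of tested genes. Both counts of 8 hold SLC38A1, which was tested only through its sgNT libraries. SLC7A11 then had -2.60 ± 0.08 in log2 and SLC1A5, the smallest difference of the 8, -0.66 ± 0.05 (edgeR adjusted p = 3.71e-10).

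The assumption of an equal guide difference was tested as an interaction of guide and replicate 1, and 7 of 8 genes passed, with the difference closer to 0 or above it in replicate 1. Of all tested genes 3.07% passed in that direction. For SLC7A11 the log2 difference between the guides was higher by 1.72 ± 0.15 in replicate 1 than in replicates 2 and 3 (edgeR adjusted p = 1.39e-08), and for SLC38A2 by 1.09 ± 0.10 (adjusted p = 1.49e-08). For SLC38A1 it was 2.75 ± 1.11 (edgeR adjusted p = 0.189). Each guide has 1 replicate 1 library, so the test takes the spread of replicates 2 and 3 as that of replicate 1, and the replicate split was known when it was chosen. On simulated counts it made more false calls than its threshold allows. Averaged over both guides, replicate 1 was lower than replicates 2 and 3 for SLC7A5 and SLC7A1 (edgeR adjusted p = 0.0399 and 0.0291), against 3.68% of tested genes.

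Levels of different genes were compared as CPM per kilobase of annotated exon. In sgNT the order from high to low was SLC1A5 (312 ± 81.5), SLC7A5 (127 ± 30.1), SLC3A2 (57.1 ± 16.3), SLC38A2 (54.3 ± 16.1), SLC7A1 (32.9 ± 7.47), SLC7A11 (11.06 ± 5.08), SLC1A4 (6.67 ± 2.00) and SLC38A1 (0.3 ± 0.155), each with n = 3. The ranges of SLC3A2 and SLC38A2 over the sgNT libraries overlapped, as did those of SLC7A11 and SLC1A4. Within each sgNT library SLC3A2 was above SLC38A2, with 38.4, 64.8 and 68.2 against 35.7, 64.3 and 62.9 CPM per kilobase. In sgHDAC7 SLC1A5 (231 ± 5.88) and SLC7A5 (69.9 ± 3.62) again led, followed by SLC3A2 (35.3 ± 1.99), SLC38A2 (25.5 ± 2.84) and SLC7A1 (21.2 ± 1.10). The order of SLC7A11 and SLC1A4 within a library was opposite in the 2 groups with this length. SLC7A11 stood at 2.24 to 2.82 CPM per kilobase against 4.25 to 4.96 for SLC1A4 in sgHDAC7, and at 5.19 to 14.04 against 4.49 to 8.42 in sgNT. With the longest transcript as the length, SLC1A4 was level with SLC7A11 in sgNT replicate 1 (5.38 and 5.19), and SLC3A2 came level with SLC7A5 in sgNT (a mean of 133 for each). In sgHDAC7 that length put SLC3A2 above SLC7A5 in all 3 libraries, with means of 82.3 and 73.1.

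The light chains that pair with SLC3A2 were then summed. Of 6 such genes 5 are in the table (SLC7A5, SLC7A6, SLC7A7, SLC7A8 and SLC7A11). SLC7A5 made up 89.9% to 94.6% of their summed level per kilobase in the 6 libraries, and SLC7A6 0.805% to 2.13%. The share of SLC7A11 was 3.96%, 3.07% and 3.04% in sgHDAC7 replicates 1 to 3, and 5.18%, 8.94% and 8.51% in sgNT replicates 1 to 3. Every sgHDAC7 library had the lower share, with means of 3.36% ± 0.52 (n = 3) and 7.55% ± 2.06 (n = 3), and an exact two-sided permutation p = 0.1. Light chains over SLC3A2 stood at 1.91, 2.34 and 2.08 in sgHDAC7 replicates 1 to 3, and at 2.61, 2.41 and 2.42 in sgNT replicates 1 to 3. The 2 groups did not overlap in that quotient either (log2 difference -0.24, exact two-sided permutation p = 0.1). The quotient's size depends on the length used, and with the longest transcripts the group means were 0.951 and 1.11.

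**Figure D3:**
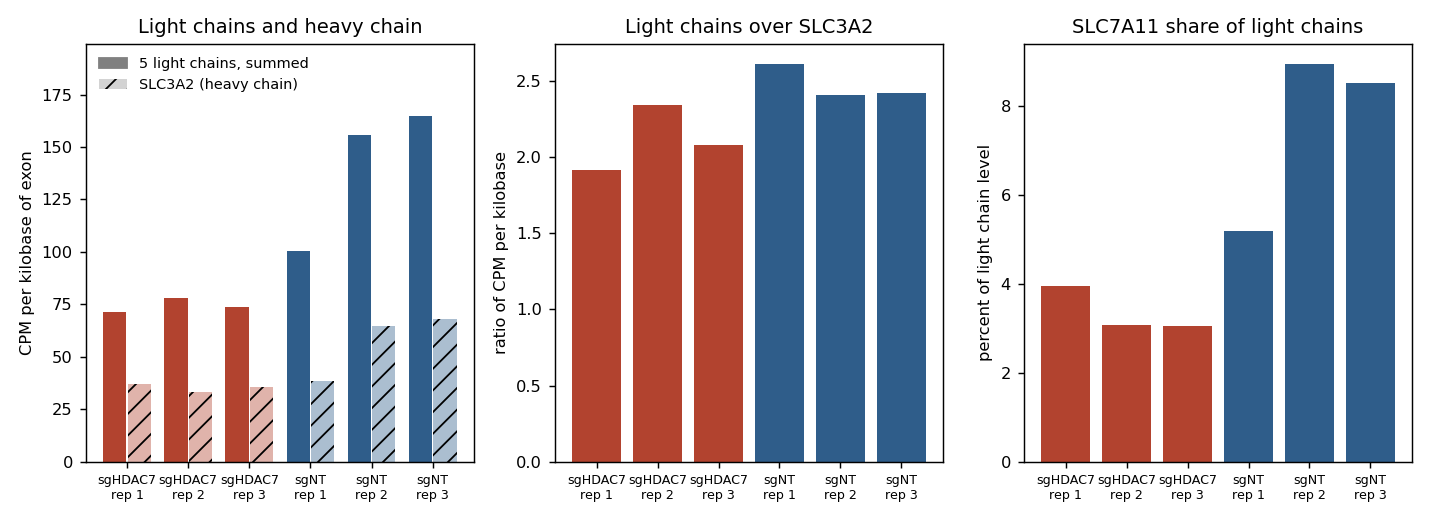
Level per kilobase of exon of the 5 light chains summed and of the heavy chain SLC3A2 (left), their quotient (middle) and the share of SLC7A11 among the light chains in percent (right), for each library; red is sgHDAC7 and blue is sgNT. The SLC7A11 share is 3.04% to 3.96% in sgHDAC7 and 5.18% to 8.94% in sgNT.

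No gene of the other 4 transporter lists was called lower with group alone, which is near the 1.70% of all tested genes. Of 21 further plasma membrane amino acid transporters on a list, 9 are in the table and 8 were tested; 0 passed the edgeR test (median log2 fold change 0.16, with a term for replicate 1 2 higher and 1 lower). SLC6A9, the glycine transporter GLYT1, was named after its values were seen, with 12.2, 19.9 and 17.3 CPM in sgHDAC7 replicates 1 to 3 and 18.7, 59.1 and 58.7 CPM in sgNT replicates 1 to 3. The groups overlapped through sgNT replicate 1, and its log2 fold change was -1.47 ± 0.37 (edgeR adjusted p = 0.0703), and it was the gene called lower with the replicate 1 term (adjusted p = 0.000257). SLC38A5 and SLC16A10, also named after their values were seen, were the 2 called higher with that term (edgeR adjusted p = 0.00262 and 0.00515). In replicates 1 to 3 the log2 ratios were 0.27, 0.33 and 0.34 for SLC38A5, and 0.43, 0.78 and 1.03 for SLC16A10. Among 9 tested lysosomal transporters CTNS, the cystine exporter cystinosin, rose 1.66-fold (edgeR adjusted p = 0.0417), from 10.4 ± 0.21 to 17.3 ± 3.16 CPM, and was the only call. Its log2 ratios were 0.94, 0.68 and 0.47 in replicates 1 to 3. None of 11 mitochondrial amino acid carriers passed (median log2 fold change 0.05), nor did any of 6 genes for glucose and monocarboxylate transport (median -0.03).

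Among 19 tested eIF2 kinases and regulators of transporter genes, 3 fell and none rose, where 1.70% of all tested genes were lower. TRIB3, an ATF4-induced pseudokinase, fell 3.50-fold (edgeR adjusted p = 0.0377), DDIT3, the stress factor CHOP, 1.98-fold (0.0437), and CEBPG, a dimer partner of ATF4, 1.61-fold (0.0436). The fall was small in replicate 1: in replicates 1 to 3 TRIB3 was 1.13-fold, 5.25-fold and 5.18-fold lower (interaction, edgeR adjusted p = 3.34e-10). DDIT3 was 1.24-fold, 2.50-fold and 2.24-fold lower, and CEBPG 1.18-fold, 1.75-fold and 1.90-fold lower. ATF4 had 400.9, 404.9 and 411.2 CPM in sgHDAC7 replicates 1 to 3 and 441.2, 644.7 and 668.9 CPM in sgNT replicates 1 to 3. The groups did not overlap and sgNT replicate 1 was the lowest control, but the log2 fold change of -0.53 ± 0.13 did not pass (edgeR adjusted p = 0.0687). The guide difference of ATF4 was closer to 0 in replicate 1, by 0.55 on the log2 scale (interaction, edgeR adjusted p = 0.000348). MYC, which is known to raise SLC7A5 and SLC1A5 transcription, had log2 ratios of -0.32, -0.27 and -0.35 in replicates 1 to 3, a fitted log2 difference of -0.31 ± 0.09 (edgeR adjusted p = 0.102) and an interaction of -0.01 (edgeR adjusted p = 0.983). NFE2L2, which encodes NRF2, a known activator of SLC7A11, had -0.39 ± 0.15 (edgeR adjusted p = 0.201), with log2 ratios of -0.19, -0.46 and -0.45 in replicates 1 to 3. BACH1, a repressor of antioxidant genes, had -0.15 ± 0.10 (edgeR adjusted p = 0.436), and EIF2AK4, the amino acid sensing kinase GCN2, -0.03 ± 0.07 (edgeR adjusted p = 0.883). With the replicate 1 term ATF4, MYC and NFE2L2 were called lower (edgeR adjusted p = 0.00334, 0.00185 and 0.00311). BACH1 and EIF2AK4 were not called with that term (edgeR adjusted p = 0.298 and 0.83). Of the 19 tested genes 8 were lower and 2 higher with that term, against 6.81% and 5.78% of all tested genes. The 2 higher were ATF5 and PPP1R15A, named after their values were seen (edgeR adjusted p = 0.00883 and 0.0158). The counts describe messenger RNA, and ATF4 is known to be controlled mainly at translation, which was not measured.

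Of 32 tested genes listed for amino acid sensing and mTORC1, 3 fell and 1 rose (median log2 fold change -0.01). Of all tested genes 1.70% were lower and 1.16% higher. The list also holds mTORC1 subunits and mTORC1 regulators such as DDIT4. DDIT4 and SESN2, both inhibitors of mTORC1, fell 9.13-fold and 5.40-fold (edgeR adjusted p = 0.0287 and 0.0384), and SESN3 fell 1.32-fold (0.0356). FNIP2, a partner of folliculin in amino acid sensing, rose 1.59-fold (edgeR adjusted p = 0.0127). The log2 ratios of SESN3 in replicates 1 to 3 were -0.38, -0.46 and -0.36, those of SESN2 -0.45, -2.76 and -2.93, and those of DDIT4 -0.86, -3.62 and -3.61 (interaction of DDIT4 2.76, edgeR adjusted p = 1.33e-15). FNIP2 had 0.81, 0.47 and 0.71. Of 19 tested enzymes acting on the carried amino acids, 3 fell and 1 rose (median -0.13), beside the same shares of all tested genes. BCAT1, which transaminates leucine, fell 1.57-fold (edgeR adjusted p = 0.00892), CTH, which makes cysteine from cystathionine, 4.12-fold (0.0349), and SHMT2, the mitochondrial serine to glycine enzyme, 1.70-fold (0.0395). SHMT1, its cytosolic counterpart, rose 1.56-fold (edgeR adjusted p = 0.0349). By replicate, the log2 ratios were -0.43, -0.76 and -0.77 for BCAT1, -0.52, -2.66 and -2.16 for CTH, and 0.53, 0.94 and 0.40 for SHMT1. SHMT2 had 184, 175 and 172 CPM in sgHDAC7 replicates 1 to 3 and 212, 344 and 345 CPM in sgNT replicates 1 to 3. With the replicate 1 term the regulators held 8 lower and 2 higher genes, the sensing list 3 and 4, and the enzymes 6 and 1. With that term 6.81% of all tested genes were lower and 5.78% higher. These lists were put together with earlier results of these libraries known, so their counts are not independent evidence of direction.

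**Figure D4:**
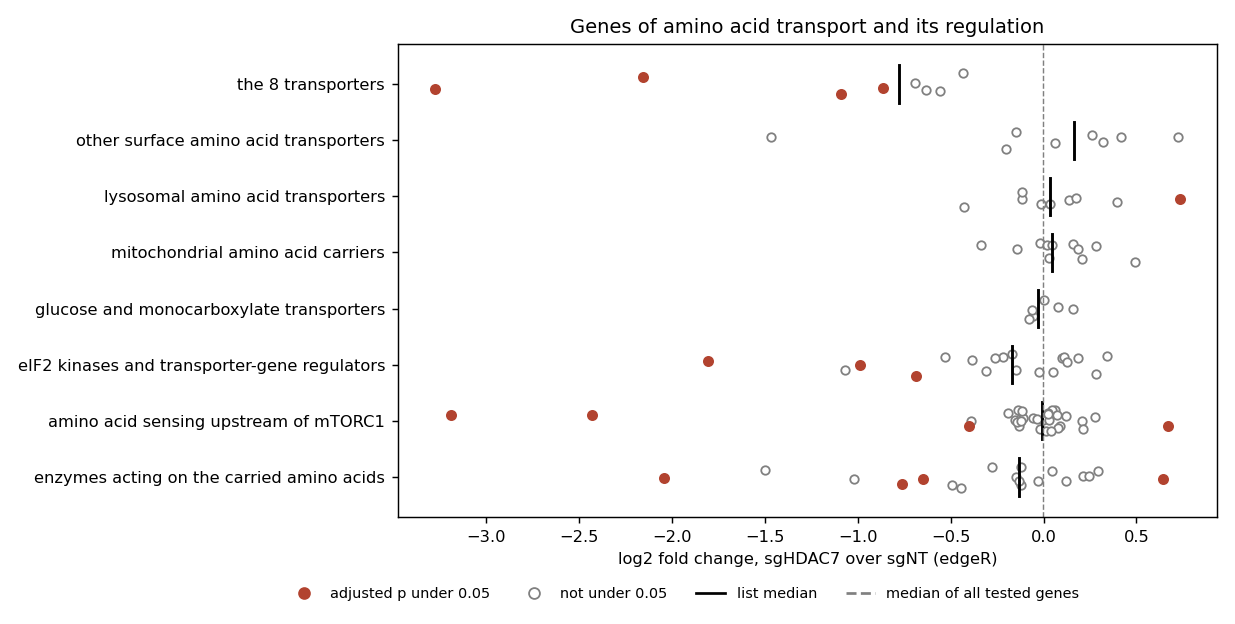
Log2 fold change of sgHDAC7 over sgNT (horizontal axis) for every tested gene of the 8 transporters and of 7 related lists; filled points have an edgeR adjusted p under 0.05, black bars are list medians and the dashed line is the median of all tested genes. The 8 transporters all lie below 0, with a median of -0.78, and the other transporter lists have medians from -0.03 to 0.16.

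Profiles across the 6 libraries were compared by the root mean square difference of centred log2(CPM + 0.5) values, where 0 means the same pattern. Genes with a mean of at least 5 CPM were candidates (10912 genes). The nearest to SLC7A11 were PSAT1, a serine synthesis enzyme, TRIB3 and CTH, at 0.22, 0.22 and 0.25. The nearest to SLC7A5 was HERPUD1, an endoplasmic reticulum stress protein, at 0.03, followed by FUT1 (0.07) and GARS1, glycyl-tRNA synthetase (0.08). SLC3A2 lay nearest to CA13, TNFRSF10B and SHMT2 (0.05, 0.06 and 0.06), and SLC38A2 to MBNL2, DDIT3 and CSF2RA (0.08, 0.11 and 0.11). SLC1A5 lay nearest to LOC653513, AARS1 and ZNF420 (0.05, 0.05 and 0.06), SLC1A4 had GRPEL2 and AARS1, alanyl-tRNA synthetase, among its nearest (0.07 and 0.08), and SLC7A1 lay nearest to SREBF1, RASIP1 and TRAK2 (0.04, 0.04 and 0.05). SLC38A1 lay nearest to SLC7A11 at 0.12, with a pseudocount that weighs on its low values, and then to TRIB3 and PSAT1. Among the members the closest pairs were SLC1A4 with SLC1A5 (0.10) and SLC3A2 with SLC1A4 (0.10), and the farthest was SLC1A5 with SLC38A1 (0.86). With 6 libraries in 2 groups many genes can share a pattern, so these distances describe likeness in these libraries only.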

How the data were processed

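Bulk poly-A RNA-seq of 6 F36P libraries was used, 3 sgHDAC7 and 3 sgNT. The authors deposited 1 table of whole-number read counts per gene, although its name says CPM; 100% of the values are whole and the column totals differ. Per the submitters' processing notes, the work involved hg38 and edgeR 3.32.1; the notes list names only. Aligner, counter, annotation and strandedness were not stated in the sources used here, so antisense reads cannot be separated. Columns named NC were taken as sgNT, the only other group. 0 further value columns and 0 rows without a gene name exist.

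Counts were tested with edgeR 4.0.16 (R 4.3.3; TMM scaling, quasi-likelihood test, group alone, two-sided) over the 13841 genes whose mean CPM reached 1. P-values were Benjamini-Hochberg adjusted over all of them, threshold 0.05. All 8 members passed the filter. Each standard error was derived as log2 fold change divided by √F. At this depth 3 counts equal 0.24 to 0.299 CPM. Alternatives were DESeq2 1.42.0, limma 3.58.1 with pseudocounts of 0.5 and 2, other scalings and filters, and leaving out libraries. The main test did not pair the samples. The ratios by replicate and the replicate block took same-numbered libraries together. Deviations of same-numbered libraries correlated in every pair (0.41, 0.22 and 0.19). Replicates 2 and 3 were as alike across numbers (0.23), so these correlations do not show a pairing of those libraries. Exon lengths and positions are from GENCODE 29 on GRCh38.

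Named genes are the 8 members, HDAC7, 5 regulators, up to 4 called genes per list with the smallest adjusted p, and the 3 nearest profiles per member, of which 1 is not reported here. SLC6A9, SLC38A5, SLC16A10, ATF5 and PPP1R15A were added after their values were seen. Light chains and cell markers are named from their own lists. Members and lists were chosen with earlier results of these data known. The count scripts were tested on simulated data that held no replicate 1 effect shared by the guides. There the group-alone test also made more false calls than its threshold allows.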

Additional observations from a re-analysis of the deposited data

Results flagged for a closer look

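The difference between the guides itself differed between replicate 1 and replicates 2 and 3 in 7 members, by the edgeR test of the interaction. In log2 units it was higher in replicate 1 by 1.72 for SLC7A11, 1.09 for SLC38A2, 0.99 for SLC1A4, 0.91 for SLC3A2, 0.78 for SLC1A5, 0.53 for SLC7A5 and 0.49 for SLC7A1. The adjusted p-values from edgeR ran from 1.39e-08 (SLC7A11) to 0.00187 (SLC7A1). The test rests on 1 replicate 1 library per guide and borrows the spread of replicates 2 and 3. On simulated counts, it made more false calls than its threshold allows. What sets replicate 1 apart was not tested.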

How the results depend on the processing

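The values rest on 3 libraries a group and on sgNT replicates 2 and 3 above all. All 8 members had a log2 fold change below 0 in every alternative that gave one, and SLC38A1 got no value from DESeq2 or at a mean CPM of at least 5. Over these alternatives the edgeR, limma or DESeq2 adjusted p ran from 4.73e-19 to 0.11 for SLC7A11 and from 3.71e-10 to 0.44 for SLC1A5. The 4 members lower with group alone became 8 with a term for replicate 1, 8 on replicates 2 and 3 alone and 1 with edgeR's robust setting, and ranged from 0 to 8 when single libraries were left out. The 235 lower and 161 higher genes of the whole table became 424 and 294 with DESeq2, 943 and 800 with the replicate 1 term, and 1502 and 1345 on replicates 2 and 3. With the replicate block, which takes the numbers as a pairing, they became 568 and 430, and 6 members were lower; apart from SLC3A2 and SLC7A1 the block changed no member's call. Leaving out single libraries gave 13 to 856 lower and 13 to 732 higher genes. The light chain quotient and the SLC7A11 share kept their direction throughout. SLC38A1 is limited by depth, and counts of members that include it hold a gene tested only through its sgNT libraries.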
